A study of Mus musculus with 8 samples.

Results

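The 5 genes described here encode interferon-gamma and the proteins that receive it at the cell surface: Ifng, the cytokine, Ifngr1 and Ifngr2, the receptor chains, and Jak1 and Jak2, the kinases bound to those chains. They were taken by gene name from a table of 18138 genes, and each name occurred in 1 row. Mouse OT-1 CD8+ T cells, which carry a transgenic receptor for the ovalbumin peptide SIINFEKL on H2-Kb, were profiled with the mouse-ref8-v2.0 beadchip of Illumina after 24 h with peptide-loaded stimulator cells at a ratio of 5:1. On 4 arrays the stimulators were B cells activated through CD40 (cB), and on the other 4 they were dendritic cells (DC). Both kinds of stimulator had been grown in culture and matured with LPS, and the T cells of both groups were sorted as CD8+ CD69+ before RNA was extracted. Every T cell therefore had the same receptor specificity and had met peptide and LPS-treated cells in culture, and T cells without stimulation were not analysed here. The labels do not say whether the replicates of a group are different cultures or animals. Any p-value here is therefore set by the scatter among these 8 samples alone, and that scatter may be technical.

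Interferon-gamma is the main antiviral and macrophage-activating cytokine of effector CD8+ T cells. It binds a receptor made of IFNGR1, which contacts the ligand and carries JAK1, and IFNGR2, which carries JAK2. The kinases phosphorylate the receptor and start a signal to the nucleus that acts through gamma-activated sites (GAS) and switches on genes for antigen presentation, antiviral GTPases and inhibitors of the pathway. T cells both secrete the cytokine and carry its receptor, so the same cells can hold RNA of all 5 genes.

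The question was how the ligand compared with the receptor and kinases on each array. The genes had been picked for the way they differ between the groups, so their differences are described without a test. Ifng was higher on all 4 cB arrays, and Ifngr1, Ifngr2 and Jak2 were higher on all 4 DC arrays. Jak1 lay close to the background of the array and its groups overlapped.

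The promoters of the ligand and of the receptor chain with the larger difference are shown because these 2 genes moved furthest, in opposite directions. Both lie on chromosome 10. The windows are 300 bases long, from 250 bases before to 50 after the start of the gene, on the gene's own strand, from RefSeq annotation of mouse assembly GRCm38.p6. Capitals mark a GAS (TTCNNNGAA, either strand), a TATA box (TATAAA, gene strand) and GC boxes (GGGCGG or its complement CCGCCC). Motifs of the cyclic AMP response element (TGACGTCA), AP-1 (TGANTCA), a T-box site (AGGTGTGA), the core of an NFAT site (GGAAA) and the CCAAT box (CCAAT) were also searched on both strands, without capitals, and a GC box was counted wherever its letters occurred, also where boxes overlapped.
Ifng, chr10:118440796-118441095, plus strand: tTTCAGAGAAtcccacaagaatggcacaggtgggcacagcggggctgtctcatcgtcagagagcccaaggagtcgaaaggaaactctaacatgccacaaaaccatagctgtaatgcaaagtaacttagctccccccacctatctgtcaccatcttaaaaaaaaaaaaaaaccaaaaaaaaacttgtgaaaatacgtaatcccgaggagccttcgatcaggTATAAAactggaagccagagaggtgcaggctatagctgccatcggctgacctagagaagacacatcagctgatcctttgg
Ifngr1, chr10:19591699-19591998, plus strand: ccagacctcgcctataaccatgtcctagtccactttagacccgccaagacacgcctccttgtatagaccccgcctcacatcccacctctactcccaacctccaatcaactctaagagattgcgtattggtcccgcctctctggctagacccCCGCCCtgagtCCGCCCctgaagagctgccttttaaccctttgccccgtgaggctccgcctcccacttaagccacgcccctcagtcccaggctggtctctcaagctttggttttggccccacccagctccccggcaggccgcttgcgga
In the Ifng window the TATA box began 30 bases before the start, and such a box was present in 8.32% of 32841 windows of the same length. A GAS lay at the far end of the Ifng window, 249 bases before the start, a motif found in 8.3% of windows. The Ifng window held no GC box, no CCAAT box, and no letters of the cyclic AMP response element, AP-1 or the T-box site. It held 1 NFAT core, 172 bases before the start, a motif found in 61.4% of windows. The Ifngr1 window had 2 GC boxes, the first of them 99 bases before the start, a motif found in 35.7% of windows, and 2 CCAAT boxes, a motif found in 37.4% of windows. It had neither a TATA box, a GAS nor an NFAT core.

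Base composition separated the ligand from the other 4 genes. The GC content of the Ifng window was 46%, and 25.1% of all windows had less. It was 60.3% for Ifngr1, 64.7% for Jak1, 74.3% for Ifngr2 and 81% for Jak2, against a median of 52.7% over all windows. The Ifng window held 7 CpG dinucleotides, the same as the median window, while the others held between 14 for Ifngr1 and 44 for Jak2. Each of those 4 windows had at least 1 GC box, the Jak1 window also had a cyclic AMP response element (in 1.79% of windows), and a TATA box or a GAS was found in none of them. These matches describe the letters of the windows only.

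Ifng gave a deposited intensity of 12925, 12074, 12135 and 12977 units on cB replicates 1 to 4. On DC replicates 1 to 4 it gave 187.7, 179.4, 287.4 and 227.2 units. The 4 cB arrays were thus close to each other, every DC array was far below them, and within the DC group replicates 3 and 4 stood above replicates 1 and 2. The mean was 12528 ± 490 units (SD, n = 4) with cB and 220 ± 49.3 (SD, n = 4) with DC, a ratio of 56.8 between the means. The estimated background lay between 148 and 167 units on the 8 arrays, so the DC values were only 1.63, 1.78, 7.51 and 4.67 background SDs above it. The deposited detection p-values of Ifng on the DC arrays, 0.00622, 0.0170, 0 and 3.14e-06, are all below 0.05, but they do not lie on the common step of those of most genes. On DC replicate 2 Ifng was below the brightest gene on that step that was not detected, which had 179.6 units, and on DC replicate 1 it was level with it. A level above background is therefore shown on DC replicates 3 and 4 and not on DC replicates 1 and 2.

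After background correction and quantile normalization Ifng stood at 13.57, 13.73, 13.21 and 13.42 on the log2 scale with cB. The corresponding DC values were 5.57, 5.59, 6.97 and 6.58. The difference, cB minus DC, was 7.31 ± 0.30 (SE, n = 4 per group), a fold of 158, and over the 16 pairs of a cB with a DC array it ranged from 6.25 to 8.16. Because the DC values lie at or just above background, the fold is not secured and its size rests on the correction: the log2 difference was 5.73 in the authors' deposited table of normalized log2 values and 5.90 when the background was estimated from all genes.

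**Figure D1:**
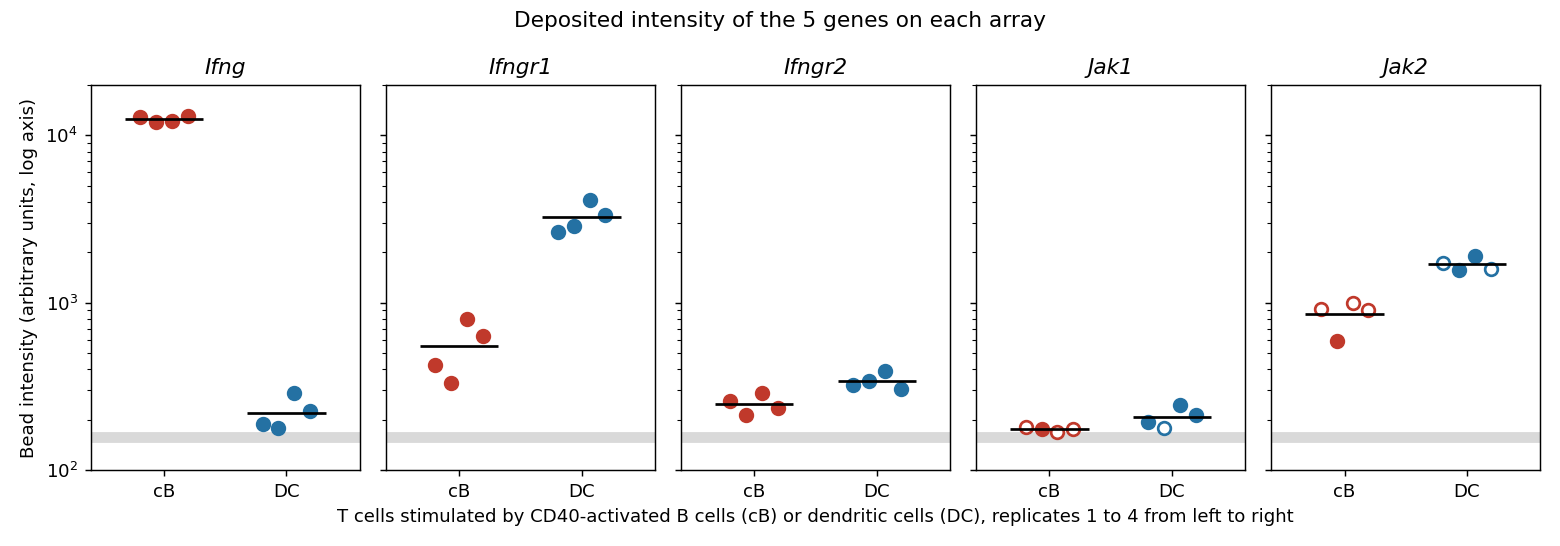
Deposited intensity (units, log axis) of the 5 genes on each of the 4 cB and 4 DC arrays; points are filled where the detection p is below 0.05, bars are group means and the grey band spans the estimated background means of the arrays, 148 to 167 units. Ifng is at 12074 units or more on every cB array and at 287.4 or less on every DC array, Ifngr1, Ifngr2 and Jak2 are higher with DC, and Jak1 lies at or just above the band.

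Ifngr1, the ligand-binding chain, had intensities of 423.1, 333.1, 805.5 and 636.0 units on cB replicates 1 to 4. On DC replicates 1 to 4 they were 2651, 2855, 4111 and 3323 units. The lowest DC array was above the highest cB array, so the groups did not overlap, and cB replicates 3 and 4 were higher than cB replicates 1 and 2. The means were 549 ± 213 units (SD, n = 4) with cB and 3235 ± 648 (SD, n = 4) with DC, a ratio of 5.89. The gene was detected on all 8 arrays with a detection p of 0. On the normalized log2 scale it stood at 8.04, 7.97, 9.06 and 8.74 with cB, and at 11.50, 11.64, 11.81 and 11.72 with DC. The difference was -3.22 ± 0.23 (SE, n = 4 per group), which is 9.30-fold higher with DC, and the array pairs spanned -2.44 to -3.84.

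Ifngr2, the signalling chain that brings JAK2 to the complex, differed less. It gave 259.0, 214.8, 287.4 and 236.1 units on the cB arrays and 322.2, 340.0, 392.6 and 306.9 units on the DC arrays. All DC arrays were above all cB arrays, though the nearest of them were 287.4 and 306.9 units. The means were 249 ± 31.2 (SD, n = 4) and 340 ± 37.3 units (SD, n = 4), a ratio of 1.37. The normalized log2 values were 6.72, 6.62, 6.77 and 6.29 with cB and 7.65, 7.90, 7.76 and 7.50 with DC. The difference of -1.10 ± 0.13 (SE, n = 4 per group), or 2.14-fold higher with DC, is larger than the ratio of raw intensities because background was removed from both groups. Ifngr2 lay between 2.71 and 6.97 background SDs above background with cB and between 9.53 and 13.8 with DC. In the authors' deposited table its difference was -0.55, and with the background estimated from all genes it was -0.25.

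Jak2, the kinase carried by IFNGR2, gave intensities of 916.8, 590.6, 995.1 and 902.7 units with cB. With DC they were 1723, 1566, 1897 and 1600 units. The groups did not overlap, and cB replicate 2 was the lowest of all arrays. The means were 851 ± 178 units (SD, n = 4) with cB and 1697 ± 150 (SD, n = 4) with DC, a ratio of 1.99. Normalized log2 values were 9.57, 9.20, 9.42 and 9.39 with cB and 10.77, 10.71, 10.60 and 10.57 with DC. The difference was -1.27 ± 0.10 (SE, n = 4 per group), which is 2.41-fold higher with DC.

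Jak2 was the only one of the 5 genes that did not pass the detection filter, which asks that 4 or more of the 8 arrays have a detection p under 0.05. Its deposited detection p-values were 0.0528, 0.0354, 0.0705 and 0.0789 with cB and 0.0694, 0.0243, 0.0491 and 0.0555 with DC, so it counted as detected on 3 arrays. Its intensity was nevertheless 28.9 to 46.8 background SDs above background with cB and 88.5 to 104 with DC. The detection p-values of most genes were whole multiples of 1 common step, and those of Jak2, Ifng and Ifngr2 were not. Among the genes on that step that were at least as bright as Jak2 on the same array, between 1114 and 2366 per array, 0 had a detection p of 0.05 or more. The deposited detection p of Jak2 therefore does not follow its intensity, and its standard error was taken from a fit over all genes without the filter.

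Jak1, the kinase carried by IFNGR1, was measured near the background on every array. Its intensities were 181.6, 176.5, 170.0 and 176.4 units with cB and 195.4, 178.5, 244.8 and 212.7 units with DC. DC replicate 2 lay below cB replicate 1, so the groups overlapped, and DC replicates 3 and 4 were the highest. Jak1 was detected on 1 of 4 cB arrays and 3 of 4 DC arrays, and its distance from background was 0.365 to 1.89 background SDs with cB and 1.73 to 4.96 with DC. Normalized log2 values were 5.30, 5.65, 5.05 and 5.07 with cB and 5.79, 5.56, 6.48 and 6.34 with DC. The difference was -0.78 ± 0.22 (SE, n = 4 per group), and 15 of the 16 array pairs had its sign. It was -0.26 in the authors' deposited table and -0.07 with the background estimated from all genes, so the size of the Jak1 difference is not settled by these arrays.

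Between the groups, the ligand ran opposite to the receptor chains and Jak2 on every array. Each value was taken relative to the gene's own mean over the 8 arrays. On the cB arrays Ifng deviated from its mean by 3.38 to 3.90, whereas Ifngr1 deviated by -2.09 to -1.003, Ifngr2 by -0.86 to -0.38 and Jak2 by -0.83 to -0.46. On the DC arrays the signs were reversed, with Ifng at -4.26 to -2.86, Ifngr1 at 1.44 to 1.75, Ifngr2 at 0.34 to 0.75 and Jak2 at 0.54 to 0.74. Jak1 was below its mean on all 4 cB arrays and also on DC replicate 2. Since the genes were chosen on this contrast, these signs restate it. Within the DC group, Ifng and Ifngr1 were both higher on replicates 3 and 4 than on replicates 1 and 2. Within the cB group, Ifng was lower and Ifngr1 higher on replicates 3 and 4 than on replicates 1 and 2 on the normalized scale. The deposited intensities of Ifng did not have that order. They were highest on cB replicate 4 and, within this group, lowest on cB replicate 2. Counted over arrays, 4 of the 5 genes had groups that did not overlap, 1 higher with cB and 3 higher with DC. Among all genes measured, 26.6% had groups that did not overlap, 12.9% higher with cB and 13.6% higher with DC. Among the 7167 genes that passed the detection filter the share was 56.8%, 27.7% higher with cB and 29.1% higher with DC. Since the genes were chosen on this contrast, nothing is read from the count.

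**Figure D2:**
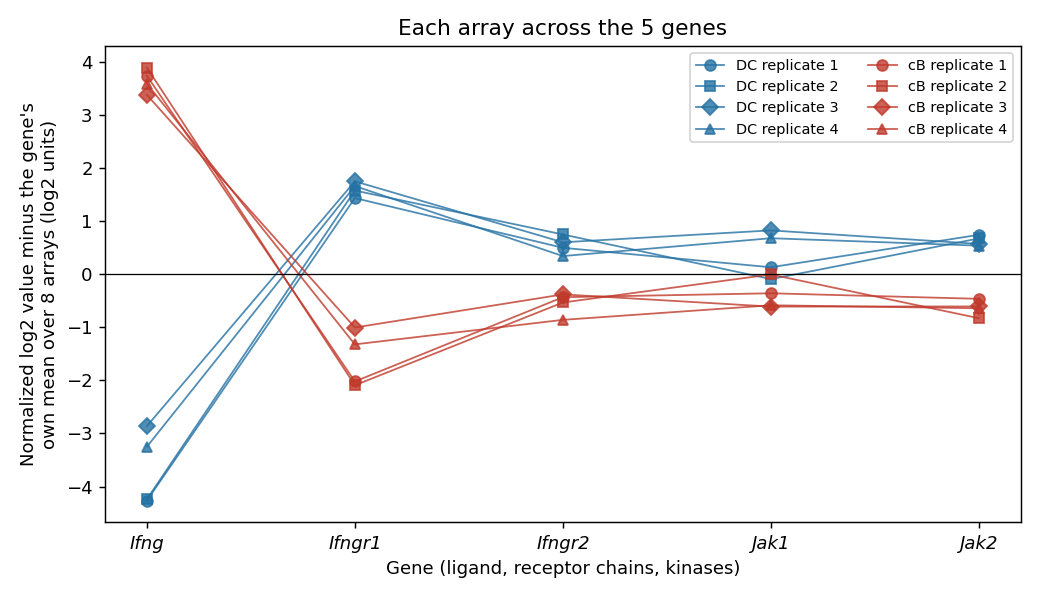
Normalized log2 value of each gene minus that gene's own mean over the 8 arrays, with 1 line per array, for cB and DC. The 4 cB lines start high at Ifng (3.38 to 3.90) and lie below 0 at Ifngr1, Ifngr2 and Jak2, and the 4 DC lines do the reverse. At Jak1 the groups overlap.

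The sign of each difference was the same under every processing tried, and the sizes were not. Ifng ranged from 5.73 without background correction to 7.37 with median scaling in place of quantile normalization. Ifngr1 ranged from -3.34 with background from all genes to -2.77 without correction, and Jak2 from -1.47 to -1.11 under the same 2 settings. Ifngr2 ranged from -1.10 to -0.25 and Jak1 from -0.78 to -0.07, the largest changes relative to the size of the difference, while Ifng moved furthest on the log2 scale. Leaving out any 1 array kept Ifng between 7.11 and 7.57, Ifngr1 between -3.42 and -3.05, Ifngr2 between -1.17 and -0.99, Jak1 between -0.94 and -0.62 and Jak2 between -1.32 and -1.20. The Jak1 value of -0.62 came from leaving out DC replicate 3.

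**Figure D3:**
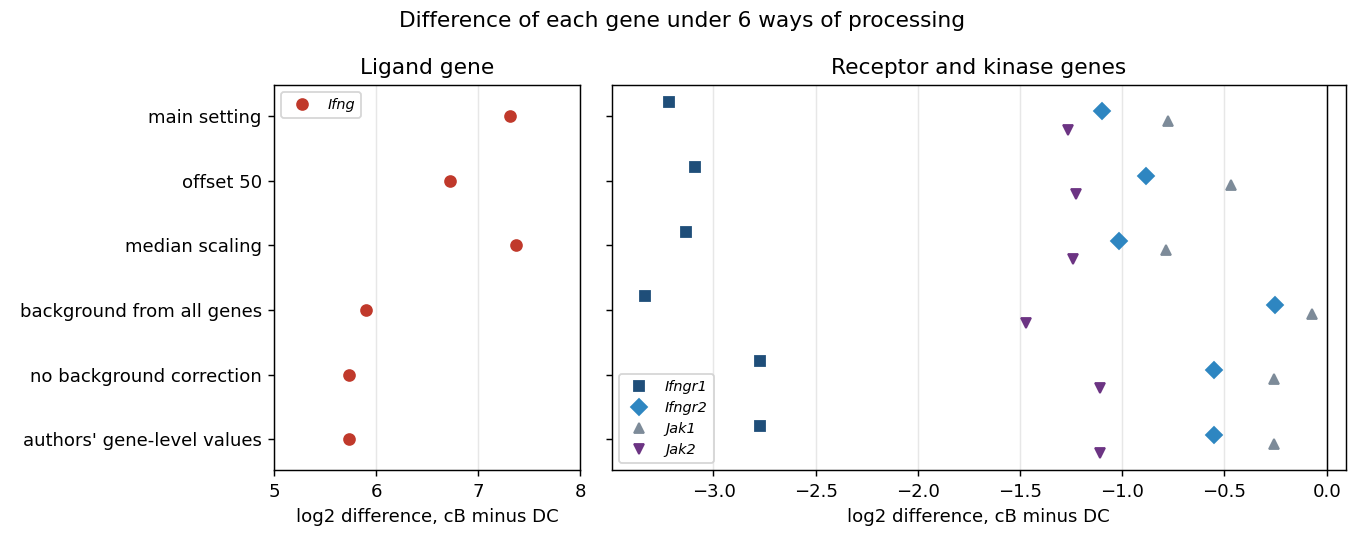
Log2 difference, cB minus DC, of the 5 genes under 6 processings of the intensities; 0 means no difference. Ifng stays above 5.7 and the other 4 genes stay below 0 throughout, with Jak1 closest to 0 at -0.07 when the background is estimated from all genes.

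Replicates of a group did not scatter equally for the 5 genes. For Ifng the SD of the normalized log2 values was 0.22 with cB and 0.71 with DC, and the 500 tested genes of nearest level had a median SD of 0.11 on the cB arrays and 0.30 on the DC arrays. For Ifngr1 it was 0.53 with cB, where the 500 nearest genes had a median of 0.20, and 0.13 with DC. On the log2 scale both genes had the larger SD in the group where they were low, and on the intensity scale the SDs given above were larger in the group where they were high. Ifngr2 had SDs of 0.21 and 0.17, Jak1 0.28 and 0.44, and Jak2 0.15 and 0.094, for cB and DC in turn. On DC replicates 3 and 4 both Ifng and Jak1 were higher than on DC replicates 1 and 2, and on cB replicates 3 and 4 Ifngr1 was higher than on cB replicates 1 and 2.

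The genes whose profile over the 8 arrays was most like that of Ifng were found by the root mean square distance between normalized log2 profiles, each centred on its own mean. Nearest were Pclaf (2810417H13Rik in the table) at a distance of 0.45, Top2a at 0.64, Pbk at 0.65, Mcm10 at 0.70 and Birc5 at 0.71. The difference was 6.32 for Top2a, which was detected on 1 of 4 DC arrays, and 6.30 for Birc5, which was detected on all 4 DC arrays. Pclaf, Pbk and Mcm10 were detected on no DC array, so their size has only a bound and is not set against that of Ifng. They passed the detection filter through the cB arrays alone. Their distances to Ifng rest on DC values near background, and nothing is read from their order. Nearest to Ifngr1 were Abhd4 at 0.19 and AW555464 at 0.20, with differences of -3.21 and -3.23. Sgpp1 and Rnf167 were nearest to Ifngr2, at 0.098 and 0.11. Eps15 and 1700030J22Rik were nearest to Jak1, at 0.21 and 0.20, and Wnk1 and Lrrc57 to Jak2, at 0.080 and 0.085. With 8 arrays in 2 groups such a distance mostly compares the size of the group difference.

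Other genes of the pathway were taken from lists, and here each tested gene was compared with limma over all 7167 genes that passed the detection filter. A gene is called where the Benjamini-Hochberg adjusted p is below 0.05. Of all genes tested 61.4% were called, 29.8% higher with cB and 31.6% higher with DC, and the median difference was -0.03. Shares of a list have to be read against these.

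Among genes of cytokine receptor signalling and feedback, most called genes were higher with DC. A link to the level of the receptor chains was not tested. Of 32 genes of receptor-proximal signalling and feedback 23 were tested, of which 14 were called higher with DC, 1 higher with cB and 8 were not called, with a median difference of -0.61, or -0.17 with background from all genes. Irf9, the DNA-binding subunit of a complex formed after type I interferon, differed by -1.88 ± 0.15 (SE, n = 4 per group). Pias1, a SUMO ligase that restrains cytokine signalling, differed by -1.13 ± 0.096, and Cish, a feedback inhibitor of cytokine receptors, by -1.33 ± 0.14. The gene called higher with cB was Ptpn1, a phosphatase that acts on JAK2, at 1.33 ± 0.30, a size that was 0.47 with background from all genes.

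Genes that respond to interferon-gamma also lay mostly on the DC side, that is, opposite to Ifng. Of 50 listed genes 37 were tested, 23 were called higher with DC, 6 higher with cB and 8 were not called, with a median of -0.77, or -0.45 without the detection filter. The GTPases Irgm2 and Igtp, which act on vacuoles that hold pathogens, differed by -2.11 ± 0.097 and -1.74 ± 0.11 (SE, n = 4 per group). Icam1, an adhesion molecule, differed by -2.34 ± 0.11, and Cd274, which encodes PD-L1, by -2.08 ± 0.11. Several responsive genes were called on the cB side. Psmb10 and Psmb8, subunits of the immunoproteasome, differed by 1.48 ± 0.12 and 0.70 ± 0.12. Cd74, the invariant chain of MHC class II, differed by 2.55 ± 0.31, and Ido1, a tryptophan-degrading enzyme, was detected on no DC array and was at least 6.50-fold higher with cB. With background from all genes the log2 difference of Ido1 was 0.51, below that bound.

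Transcription factors known to act on Ifng were mostly higher in the group where Ifng was low. Of 39 listed genes 26 were tested, 18 were called higher with DC, 1 higher with cB and 7 were not called, with a median of -0.96, or -0.60 without the detection filter. Jun and Junb, subunits of AP-1, differed by -2.54 ± 0.15 and -1.56 ± 0.12 (SE, n = 4 per group). Ddit3, a stress-response factor, differed by -2.46 ± 0.18, and Bcl6, a repressor, by -2.52 ± 0.19, the latter -0.78 with background from all genes. Tbx21, which encodes T-bet, a direct activator of Ifng, differed by -1.51 ± 0.12. Stat4, which carries the interleukin-12 signal, differed by 0.02 ± 0.10 and was not called, and Eomes, a T-box factor of CD8+ T cells, differed by -0.22 ± 0.31 and was not called. These last 3 genes were chosen after their values were seen. Batf, a partner of JUN proteins, was the gene called higher with cB, at 2.22 ± 0.14.

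Receptors and adaptors for signals that induce Ifng were called in both directions. Over all genes tested, 29.8% were called higher with cB and 31.6% higher with DC. The split of this list is near that, and nothing is read from it. Of 29 listed genes 24 were tested, 9 were called higher with cB, 10 higher with DC and 5 were not called, with a median of -0.08. With median scaling 5 genes were called higher with DC and the median was 0.01, and it was 0.01 without cB replicate 1 and -0.25 without cB replicate 3. On the cB side Tnfrsf4, the costimulatory receptor OX40, was 8.02-fold higher (n = 4 per group), and Il27ra, a chain of the interleukin-27 receptor, differed by 1.15 ± 0.11 (SE). Il12rb1, a chain of the interleukin-12 receptor, differed by 1.77 ± 0.11 and Il7r by 1.09 ± 0.14, which became 0.94 and 0.14 with background from all genes. On the DC side were Gadd45b, a stress-kinase activator, at -2.37 ± 0.21, Il2rg, the common gamma chain, at -0.98 ± 0.092, and Myd88, an adaptor of the interleukin-18 receptor, at -0.83 ± 0.091. Il21r, detected on 2 of 4 cB arrays, differed by -1.57 ± 0.19, and by -0.27 with background from all genes.

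The relatives of the receptor and kinases gave fewer measurable genes. Of 12 class II cytokine receptor chains and other JAK kinases 6 were tested, 4 were called higher with DC, 1 higher with cB and 1 was not called, with a median of -0.50. With background from all genes the median was -0.06, and under median scaling 1 was called higher with DC. Tyk2, a JAK kinase of type I interferon and interleukin-12 receptors, differed by -1.10 ± 0.12 (SE, n = 4 per group) and was the one still called under median scaling. Jak3, the kinase of the common gamma chain, differed by -0.48 ± 0.14, Ifnar2, a type I interferon receptor chain, by -0.54 ± 0.16, and Il10rb, a shared receptor chain, by -0.51 ± 0.19. Ifnar2 and Il10rb were also not called with background from all genes, where they differed by -0.05 and -0.07. Il10ra, the ligand-binding chain of the interleukin-10 receptor, was higher with cB at 0.89 ± 0.13, or 0.52 with background from all genes.

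Other cytokine genes of activated CD8+ T cells did not all follow Ifng. Of 28 listed genes 18 were tested, 9 were called higher with cB, 6 higher with DC and 3 were not called, with a median of 0.37, which was 0.08 with background from all genes and -0.01 without the detection filter. Xcl1, a chemokine for cross-presenting dendritic cells, differed by 3.90 ± 0.36 (SE, n = 4 per group), Il3, a growth factor of myeloid cells, by 2.56 ± 0.19, and Ccl3, a chemokine, by 1.22 ± 0.18. Il24 was detected on no DC array and was at least 19.2-fold higher with cB. With background from all genes its log2 difference was 1.52, below that bound. On the DC side Lif differed by -2.05 ± 0.14, Ccl5, a chemokine of effector T cells, by -2.14 ± 0.36, and Tnf by -0.54 ± 0.12. Tnfsf8, the CD30 ligand, was detected on 2 of 4 cB arrays and differed by -3.05 ± 0.29, or -0.80 with background from all genes.

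**Figure D4:**
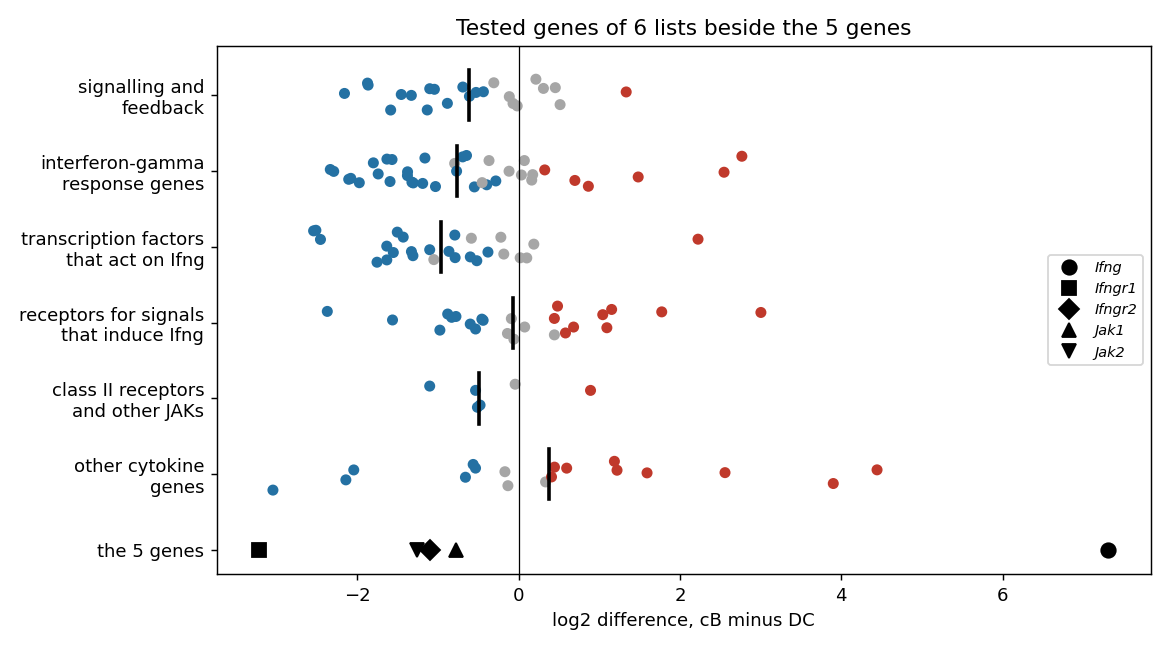
Log2 difference, cB minus DC, of each tested gene in the 6 lists (red, called higher with cB; blue, called higher with DC; grey, not called; black bar, median), with the 5 genes of the ligand, receptor and kinases in black at the bottom. Signalling, response and transcription factor genes lie mostly below 0 (medians -0.61, -0.77 and -0.96), while Ifng lies at 7.31.

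The sort left both groups alike in some T cell markers and not in others. Cd69, the activation marker used in the sort, was higher with DC by 2.15 on the log2 scale (cB minus DC -2.15 ± 0.13, SE, n = 4 per group), and Cd8b1, a chain of CD8, differed by -0.06 ± 0.11 and was not called. Thy1, at 0.90 ± 0.14, was called higher with cB, and Cd3d, at -0.54 ± 0.14, was called higher with DC except under median scaling. Of the other T cell markers Cd2 was called higher with cB (0.60 ± 0.13), and Cd6 (-0.72 ± 0.12), Cd247 (-0.68 ± 0.15) and Cd3e (-0.32 ± 0.12) higher with DC, Cd3e not under median scaling. Of 11 T cell markers measured, 10 were detected on every array, and the row named Cd8a was detected on none. In such bulk samples fewer cells of a type and less RNA per cell cannot be told apart.

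Markers of the stimulator cells moved to some extent with the groups. Of 12 B cell markers measured, 5 to 7 were detected on cB arrays and 1 to 2 on DC arrays, and Pax5, Cd22, Cr2 and Blk were detected on no array. The summed intensity of these markers was 2489 to 2868 units with cB and 2476 to 2880 with DC. Such sums, here and for the other marker lists, still hold the background of every gene. The B cell sum also includes Pou2af1, with a mean of 452 units with cB and 840 with DC. Fcmr and Cd79b were detected on no DC array and were at least 5.97-fold and 4.84-fold higher with cB, beside Cd74 and Ido1 of the response list, and Pou2af1 was higher with DC (-1.27 ± 0.16, SE, n = 4 per group). Of 22 myeloid and dendritic cell markers 4 to 6 were detected on cB arrays and 7 to 10 on DC arrays, with a summed intensity of 3693 to 4579 units with cB and 4457 to 5298 with DC. Itgax, Itgam, Csf1r and Lyz1 were among the 10 detected on no array. Cd14 and Il1b were detected on no cB array and were at least 5.03-fold and 4.49-fold higher with DC, Cd68 and Fcer1g differed by -0.99 ± 0.17 and -1.15 ± 0.23, and Fscn1 by 1.48 ± 0.21, while Lgals3, at -0.94 ± 0.41, was not called. These marker differences, like those of other dim genes, were smaller with background from all genes. On the log2 scale they were 0.33 for Cd79b and -0.36 for Cd14, short of the bounds given. The part of these cells in the values of Ifng, Ifngr1, the other members of the axis and the lists was not tested.

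Natural killer cells also make interferon-gamma, and few of their markers were detected per array. Of 10 listed markers 7 were measured. Of these, 1 to 2 were detected on cB arrays and 1 to 3 on DC arrays, and Ncr1, Klra1 and Klre1 were detected on none. The summed intensity, background included, was 1362 to 2163 units with cB and 1640 to 2389 with DC. Klrd1, the only tested marker of the list, had means of 759 units with cB and 1052 with DC. It differed by -0.67 ± 0.31 (SE, n = 4 per group) and was not called. Fcgr3 was detected on 3 DC arrays and no cB array. The part of natural killer cells in the values of Ifng was not tested.

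Mean intensity per array was 602 to 824 units, and each array detected 38.3% to 40.8% of the genes. Correlations of normalized log2 values between arrays were 0.979 to 0.990 within groups and 0.863 to 0.883 across them. The number of arrays, 4 per group, limits the precision of every value.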

How the data were processed

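Each array was placed in its group and given its replicate number from its title. The 5 genes and all lists were chosen with earlier results of these data known, so differences of the 5 genes carry no test, and counts over a list are descriptions.

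The deposited table holds, per the file headers, the mean bead intensity (linear, not log) and a detection p-value for each gene on each array. No source used here says how probes became gene rows, so the probes behind a gene stay unknown. The authors also deposited normalized log2 values per gene, by a method that no source used here states; on each array they correlated with log2 intensity at 0.999 or more.

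R 4.3.3 with limma 3.58.1 was used to compute log2 values. Each array's background came from 13929 genes whose detection p-values were whole multiples of 1 step, the reciprocal of the likely number of negative controls (within 0.001 of a step), which gave SDs of 15.1 to 25.4 units; with all genes the SDs were 195 to 344. Normexp correction with an offset of 16 and quantile normalization followed. The 7167 genes detected (p below 0.05) on 4 or more of 8 arrays were fitted with lmFit and eBayes, cB minus DC, with Benjamini-Hochberg adjustment over all of them. Every SE given is the one moderated by eBayes, which draws a gene's variance toward that of all genes fitted. It assumes a common variance in both groups, and it is not the SE of the gene's own values alone. Where no array of a group detected a gene, its fold is a bound, written "at least": its value in the dim group was set on each array to the lowest detected value, or to its own if that was higher, and averaged. Such a bound holds for this background setting only. The genes given with a bound had differences short of it with background from all genes. The procedure was also run on simulated data, in which only genes detected on all 8 arrays were changed and no detection p lay off the step. That run cannot speak to Jak1 or to genes off the step, such as Ifng, Ifngr2 and Jak2. Alternatives were the background setting, the offset, the normalization, the detection filter, the authors' log2 values, the replicate block and leaving out each array.

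Of the gene names measured, 14309 were current symbols and 2886 synonyms of 1 gene in RefSeq (GRCm38.p6), and 943 were neither. Promoters came from the same annotation, and all 5 genes matched. Named list genes are the 4 of lowest p among those called in each direction. Named markers are the 2 brightest of a list and those called, with Cd69 and Cd8b1 as the check of the sort. Named like genes are the 5 nearest to Ifng and the 2 nearest to each other gene. Other genes are named as members of a small count or as chosen after their values were seen. Some genes are not reported here.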

Additional observations from a re-analysis of the deposited data

How the results depend on the processing

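No difference of the 5 genes changed sign under any alternative. Ifng was 5.90 with background from all genes, 5.73 without correction and in the authors' log2 values, and 6.73 with an offset of 50. Ifngr1 was -2.77 without correction and in the authors' values. Ifngr2 was -0.25 with background from all genes, -0.55 without correction and in the authors' values, and -0.88 with an offset of 50. For the same first 3 settings Jak1 was -0.071, -0.26 and -0.26, and Jak2 was -1.47, -1.11 and -1.11. Each array left out in turn gave 7.11 to 7.57 for Ifng, -3.42 to -3.05 for Ifngr1, -1.17 to -0.99 for Ifngr2, -0.94 to -0.62 for Jak1 and -1.32 to -1.20 for Jak2. The number of genes called, 4397, ranged from 3504 (detected on all 8 arrays) to 4743 (authors' values), and from 3980 to 4181 with an array left out.

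Small counts moved. Signalling genes called higher with cB numbered 2 in place of 1 with background from all genes, no correction, median scaling, detection on all 8 arrays or the replicate block, 3 in the authors' values, and 1 to 2 with an array left out (2 without cB replicate 3, cB replicate 4 or DC replicate 2). Transcription factors called higher with cB numbered 2 in the authors' values, without the detection filter and with a filter on intensity in place of detection, which was chosen after seeing the data. Receptors called higher with DC numbered 5 with median scaling, and class II receptors and JAK kinases 2 with background from all genes or the authors' values and 1 with median scaling. The median of the receptor list was 0.01 with median scaling (0.0055) and without cB replicate 1 (0.014), and that of the cytokine list -0.01 (-0.012) without the detection filter. The causes were not tested.

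The main comparison did not treat same-numbered arrays as pairs. Deviations of same-numbered arrays from their group means correlated at 0.11, 0.13, 0.18 and 0.082, and each array correlated best with its own number. Whether same-numbered arrays share a culture or a day was not tested. With the replicate block 4431 genes were called, 2144 higher with cB and 2287 higher with DC. The comparison with the authors' probe-level values was not run, since no table used here names the probes of the 5 genes. Signal close to background limits Jak1 in both groups and Ifng with DC.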
